A study of Gallus gallus with 6 samples.

Results

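Receptor tyrosine kinases are cell-surface receptors that become active when a ligand binds. They then pass the signal on through Ras and the MAP kinases or through PI3 kinase. In skin and its appendages, fibroblast growth factors (FGFs) carry signals between mesenchyme and epithelium, ligands of the epidermal growth factor (EGF) family act on keratinocytes, and Eph receptors meet membrane-bound ephrins on neighbouring cells. Sprouty and Spred proteins and the dual-specificity phosphatases (DUSPs) damp the pathway. Here the genes of these families were followed in growing neck, wing and leg feathers of adult chickens, an organ in which the study examined an FGF gradient during branching.

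The members are the entries of either deposited table whose names begin as FGF, FGFR, EGF, ERBB, neuregulin, AREG, HBEGF, TGFA, Eph, ephrin, PDGF, IGF, INSR, VEGF, Sprouty, Spred or DUSP genes do, and entries that merge several genes were skipped, among them one that joins *ERBB2* to *PNMT*. They came to 77 genes, 29 by name among the 6534 entries of the first table and 69 among the 6534 of the second, where all Sprouty and Spred entries stood. *VEGFD* of the first table is listed under its older name *FIGF* in the second, which made 70 there, and *AREG* is listed there as *AREGB*. With these matches 22 members had a value in both tables, 7 only in the first and 48 only in the second. Of the 77, 5 share only the start of the name: *FGFR1OP2*, *EGFL6*, *EGFL7* and the RNA-binding proteins *IGF2BP1* and *IGF2BP3*.

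The 6 libraries come from untreated wild-type birds of the domestic chicken, labelled strain domesticus, with 2 labelled replicates for each region, neck feather, wing contour feather and leg feather, all in growth phase. The series' design text describes branching epithelium, dissected away from its pulp and pooled from 5 feathers, while the study's methods describe RNA of whole follicles or of dissected dermal papilla and pulp. The study's methods describe its birds as adult males of a few months. Replicate 1 of every region is in the first table, in whole numbers of unstated unit (called scores here), and replicate 2 is in the second, in FPKM, a fragment count scaled to gene length and library size. The column headers of the second table hold a different chicken number for each region. What the number stands for is not stated, so region and bird may coincide in that table. Values given as a triple are in the order neck, wing, leg. The number of fragments behind a value is unknown, so no counting error can be given, and levels are compared between genes only in FPKM, which is per length.

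The scores summed to 4195932 (neck), 1780292 (wing) and 3051339 (leg), and the FPKM values to 792798, 701758 and 805460. Epithelial markers were present in every library, with summed scores of 1102, 1283 and 987 for 9 listed markers and a summed FPKM of 1777, 3148 and 1623 for 10, although the second table lists *KRT5* and *KRT75* at 0 throughout, as it does widely used genes such as *CHMP2A*. An FPKM of 0 is therefore given only as listed. Of the 70 members in that table, 47 had an FPKM of at least 1 in all 3 libraries, against 67.8% of all entries, and 5 were at 0 throughout. Markers of mesenchyme were also present and uneven: 16 of 16 in the second table were higher in wing and in leg than in neck, and their summed FPKM was 419 (neck), 1809 (wing) and 957 (leg), with no marker at 0. In the first table the summed scores of 7 markers were 202, 635 and 384. Of these 7, 6 were higher in wing and in leg than in neck. *VIM* was the exception, with scores of 75 (neck), 62 (wing) and 69 (leg). Fewer cells of a type and less RNA per cell cannot be told apart in such bulk samples.

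Regions were compared with limma over the 2191 genes that each table lists once, on log2(value + 1), with the replicate number as a block and Benjamini-Hochberg adjustment over all of these genes. A gene was called at an adjusted p under 0.05. The replicates are also the tables, and nothing says that they came from separate birds. The p-values and standard errors therefore measure only a spread between the tables, and this spread was pooled over genes. A gene's own spread between the tables had no weight in them. The 22 members with both values were tested in this fit. No entry of the first table has a mean score below 9.67. A member near that level may therefore be tested only through its highest region. Mean scores were 10.7 for *EPHB2* and *VEGFA*, 11.3 for *VEGFD* and 11.7 for *EFNA5*, and their p-values do not allow for this. Over all genes the median log2 change was 0.14 from neck to wing, -0.20 from neck to leg and -0.32 from wing to leg, so each call was also looked up after each library had been centred on its median.

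Between wing and neck, 10 of the 22 members were called, 6 higher and 4 lower in wing, where 27.7% of all genes tested were called, 19.5% higher and 8.26% lower. *IGFBP4*, *VEGFD*, *FGFR3*, *EFNA2*, *EFNA5* and *FGF12* were higher in wing, and *EPHB2*, *AREG*, *EPHA1* and *EPHA4* were lower. With centring 13 members were called, 5 higher and 8 lower, against 45.7% of all genes, 22% higher and 23.8% lower, and all of these 10 but *FGF12* were among them. Between leg and neck, 3 members were called, with *DUSP1* higher and *FGFR2* and *FGFR3* lower in leg, against 12.1% of all genes, 1.78% higher and 10.4% lower. With centring only *FGFR3* of these 3 was still called, beside *VEGFA* and *EPHA1*, both higher in leg, against 17.9% of all genes, 9.58% higher and 8.31% lower. Between leg and wing, 12 members were called, 5 higher and 7 lower in leg, against 46.7% of all genes, 5.98% higher and 40.8% lower. With centring 14 were called, 9 of them higher, against 52.4% of all genes, 28.3% higher and 24% lower, and 9 of the 12 were called again, without *DUSP1*, *EGFR* and *FGFR2*.

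**Figure D1:**
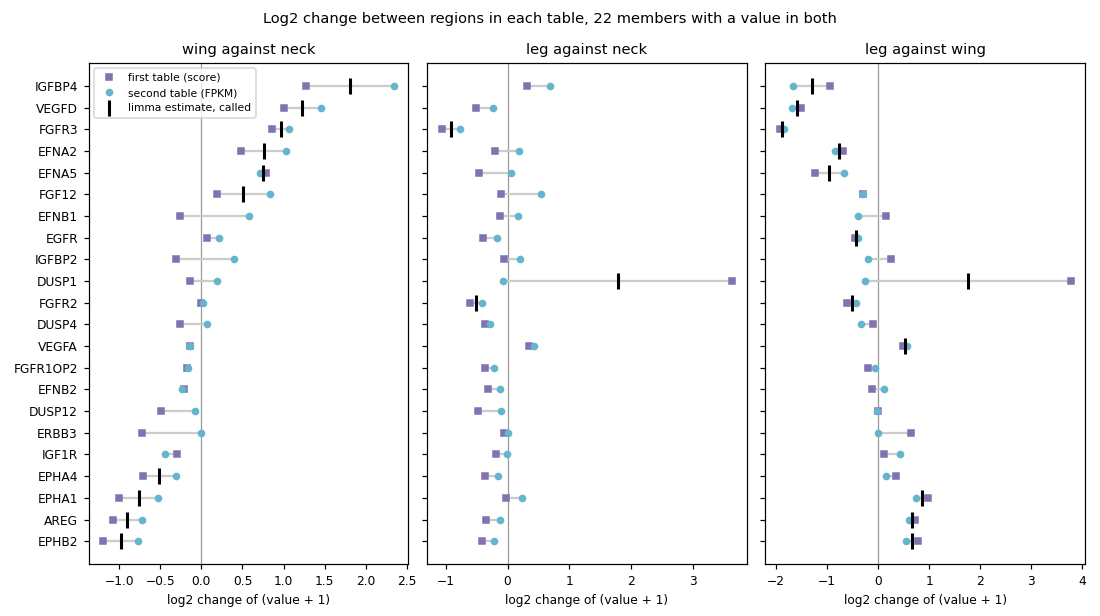
Log2 change of (value + 1) between regions for the 22 members with a value in both tables, given separately for the first table (squares) and the second (circles), each from 1 library per region; a black bar marks the limma estimate where the gene was called. The squares and circles of *FGFR3* lie close together in all 3 comparisons, whereas those of *DUSP1* lie far apart wherever leg is involved.

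FGF receptors differed most clearly at *FGFR3*. *FGFR3*, on chromosome 4 from 83992947 to 84045422 (positions are those of the first table, which names no genome build, while the study's methods name Galgal4), had scores of 20 (neck), 37 (wing) and 9 (leg). Its FPKM was 47.8, 101 and 27.5. Both tables placed wing highest and leg lowest, and the highest value was at least 3 times the lowest in each. The log2 change was 0.96 ± 0.17 (SE) from neck to wing (limma, adjusted p = 4.33e-07), -0.92 ± 0.17 from neck to leg (adjusted p = 5.40e-06) and -1.89 ± 0.17 from wing to leg (adjusted p = 1.31e-25). It was the one member called in all 3 comparisons before centring, and after centring it and *EPHA1* were. The summed melanocyte markers had the same order of regions, wing highest and leg lowest: the summed score of 6 listed markers was 245, 796 and 172 and the summed FPKM of 8 was 159, 415 and 133. Single markers varied: *TYR* had an FPKM of 48.7, 209 and 36.0, *EDNRB2* of 19.2, 53.9 and 22.4, with neck lowest, and *TYRP1* of 13.7, 0.203 and 20.2, with wing lowest. *PMEL* was listed at 0 in the second table, and *DCT* was at 0 there outside wing. The summed epithelial markers had this order too, while single ones varied. Wing was above neck for 5 of the 9 by score and for 8 of the 10 by FPKM, where the other 2 were listed at 0. Leg was above neck for 3 of the 9 by score and for 4 of the 10 by FPKM. *EPCAM*, with an FPKM of 872, 932 and 688, made up much of the sum in neck and leg. *KRT5* had scores of 307, 519 and 244, and *CDH1* of 147, 122 and 109 beside an FPKM of 108, 125 and 95.0. The part of either cell type in the *FGFR3* values was not tested.

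*FGFR2* encodes the receptor whose epithelial splice form binds FGF7 and FGF10, and neither table separates splice forms. *FGFR2*, on chromosome 6 from 30906128 to 30984052, had scores of 37, 37 and 24 beside an FPKM of 77.6 (neck), 78.9 (wing) and 58.0 (leg). Leg was lowest in both tables, with a log2 change of -0.51 ± 0.17 from neck to leg (adjusted p = 0.0316) and -0.52 ± 0.17 from wing to leg (adjusted p = 0.00766). After centring these changes were -0.29 and -0.15 and neither was called. *FGFR1*, the target of RNAi injections in the study, had a value in the second table only, an FPKM of 2.97 (neck), 9.21 (wing) and 3.27 (leg). It stood far below *FGFR2* and *FGFR3* in each library. *FGFRL1*, which lacks the kinase domain, reached 1.18 in wing and did not pass 0.256 elsewhere.

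Secreted FGFs were mostly low. Of 12 members, 11 had FPKM values, 5 of which reached 1 in all libraries, and *FGF3*, *FGF4* and *FGF19* were listed at 0. *FGF7*, a ligand that mesenchyme sends to epithelial FGFR2 in mammals, had an FPKM of 1.43 (neck), 18.4 (wing) and 5.03 (leg), and wing was 12.8 times neck. *FGF10*, used on beads in the study, had 1.43, 4.47 and 5.23. Both were lowest in neck, as the mesenchyme markers were, and the part of those cells in this was not tested. *FGF2*, the other ligand that the study mapped along the follicle, had 5.09, 5.63 and 4.72, a narrower range than either. *FGF9* had 4.05, 5.06 and 8.55, highest in leg, and *FGF18* had 4.37, 3.15 and 3.65. *FGF1*, *FGF8* and *FGF16* stayed at or below 1.23.

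*FGF22*, of the same subfamily as *FGF7* and *FGF10*, was the one secreted FGF with a score. *FGF22*, on chromosome 28 from 2724443 to 2743064, had scores of 29 (neck), 10 (wing) and 27 (leg), so that its lowest library was wing. With 1 library per region this difference has no replicate check. *FGF7* was highest in wing, but it had FPKM values only, so these genes share no library. Over all entries with a mean of at least 1, the median log2 change from neck to wing was -0.08 for scores and 0.39 for FPKM. The intracellular FGFs, which are not secreted and bind sodium channels, were led by *FGF12*. *FGF12* had scores of 13, 15 and 12 beside an FPKM of 8.89, 16.6 and 13.4, with a log2 change of 0.51 ± 0.20 from neck to wing (limma, adjusted p = 0.039) that was not called after centring. *FGF13* and *FGF14* did not pass an FPKM of 1.19.

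**Figure D2:**
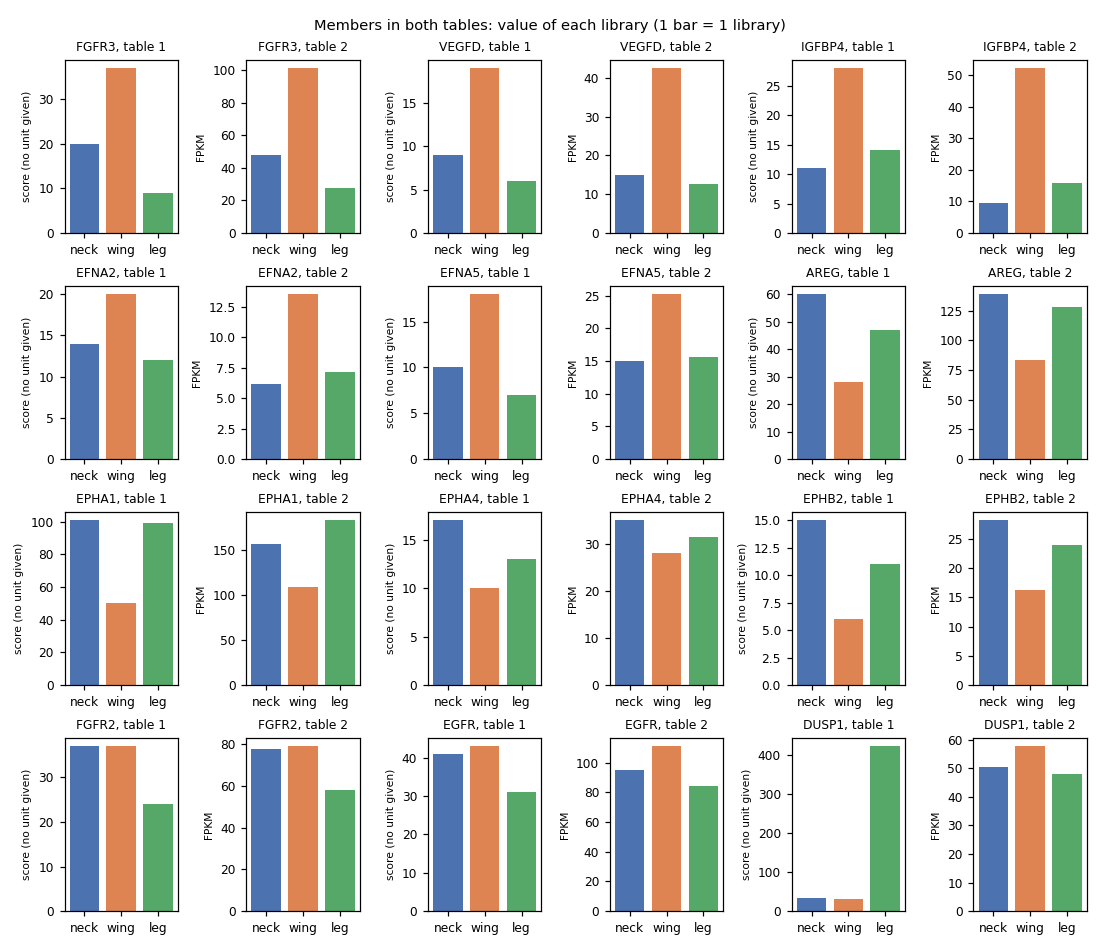
Value of each library for 12 members with values in both tables, each with its score (first table, replicate 1) and FPKM (second table, replicate 2), 1 bar per library and axes from 0. Wing stands highest for *FGFR3*, *VEGFD*, *IGFBP4*, *EFNA2* and *EFNA5* and lowest for *AREG*, *EPHA1*, *EPHA4* and *EPHB2* in both tables, and *DUSP1* is high in the leg library of the first table only.

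In the EGF family the most abundant ligand was *AREG*, amphiregulin, which binds EGFR. *AREG*, on chromosome 4 from 45060435 to 45066903, had scores of 60 (neck), 28 (wing) and 47 (leg) beside an FPKM of 139, 83.7 and 128. Wing was lowest in both tables. The log2 change was -0.90 ± 0.18 from neck to wing (limma, adjusted p = 6.09e-06) and 0.67 ± 0.18 from wing to leg (adjusted p = 0.000774), both called after centring as well. Of the other members that are EGFR ligands, *HBEGF* had an FPKM of 5.37, 8.19 and 6.15 and *TGFA* of 5.94, 5.86 and 8.94, far below *AREG*. Of EGFR ligands outside the members, named here after their values were seen, *EREG* had an FPKM of 3.18, 2.62 and 3.02. *BTC* had scores of 34, 23 and 29 beside an FPKM of 42.6, 43.4 and 44.2. *EPGN* had scores of 12, 18 and 11 beside an FPKM of 24.6, 49.4 and 28.9, wing highest in both. Its log2 change was 0.76 ± 0.18 from neck to wing (limma, adjusted p = 0.000204) and -0.71 ± 0.18 from wing to leg (adjusted p = 0.000365), both called after centring. *NRG4*, a neuregulin that binds ERBB4 in mammals, had 3.83, 10.1 and 2.59, with wing highest. *NRG1* stayed below 1 and *EGF* was listed at 0.

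Among the receptors of these ligands, *EGFR*, on chromosome 2 from 51984225 to 52134913, had scores of 41, 43 and 31 beside an FPKM of 95.2, 111 and 84.2. It was called between leg and wing, with a log2 change of -0.43 ± 0.18 (adjusted p = 0.0338), and after centring the change was -0.06 and not called. *ERBB2*, the partner receptor with no ligand of its own, had an FPKM of 33.1, 41.4 and 35.1. *ERBB3* had scores of 22, 13 and 21 but had an FPKM listed at 0 in every region, so its change there was fixed at 0 and its fitted change is not given. *ERBB4* did not pass an FPKM of 0.064, in libraries where its ligand *NRG4* was measured.

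Eph receptors stood lowest in wing wherever a difference was called. *EPHA1* had the highest mean FPKM of all members. *EPHA1*, on chromosome 1 from 77496574 to 77530024, had scores of 101 (neck), 50 (wing) and 99 (leg) beside an FPKM of 156, 109 and 183. Neck and leg were close in the first table, leg was highest in the second, and wing was lowest in both. Its log2 change was -0.76 ± 0.19 from neck to wing (limma, adjusted p = 0.000381) and 0.86 ± 0.19 from wing to leg (adjusted p = 2.69e-05). With only the 4 libraries of neck and wing in the fit, the first of these was no longer called, while centring kept it.

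*EPHB2*, on chromosome 21 from 5946285 to 6063532, had scores of 15, 6 and 11 beside an FPKM of 28.2, 16.2 and 24.0. The log2 change was -0.98 ± 0.19 from neck to wing (limma, adjusted p = 4.58e-06) and 0.66 ± 0.19 from wing to leg (limma, adjusted p = 0.00205). Both were called after centring. The mean score of *EPHB2*, 10.7, was near the lowest of the first table, so it may be tested only through neck. *EPHA4*, on chromosome 9 from 7626767 to 7841500, had scores of 17, 10 and 13 beside an FPKM of 35.0, 28.0 and 31.4. Its change from neck to wing was -0.51 ± 0.18 (limma, adjusted p = 0.0207), kept by centring and lost with the 4 libraries of these regions alone. *EPHA2*, in the first table only and on the same chromosome as *EPHB2*, had scores of 15, 7 and 14. Its mean score of 12 was near the lowest too, so it may be listed only through neck and leg. *EPHB1*, also in the first table only, had 13, 12 and 9. *EPHB6*, whose kinase is inactive in mammals, was in the second table only, with an FPKM of 19.1, 23.1 and 22.1, lowest in neck. Wing was highest for it, as for 76.4% of the entries there with a mean of at least 1. *EPHA3*, *EPHA5* and *EPHA7* did not pass an FPKM of 1.33.

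Ephrins of the A class, which are anchored to the membrane by a lipid, ran the other way. *EFNA5*, on chromosome Z from 48046147 to 48253874, had scores of 10 (neck), 18 (wing) and 7 (leg) beside an FPKM of 15.0, 25.2 and 15.5. Its log2 change was 0.75 ± 0.19 from neck to wing (adjusted p = 0.000881) and -0.96 ± 0.19 from wing to leg (adjusted p = 7.01e-06). Its mean score of 11.7 was near the lowest of the first table, so it may be tested only through wing. *EFNA2*, on chromosome 28 from 3127771 to 3161422, had scores of 14, 20 and 12 beside an FPKM of 6.13, 13.5 and 7.11, with log2 changes of 0.76 ± 0.21 (adjusted p = 0.00177) and -0.77 ± 0.21 (adjusted p = 0.000822). Wing was highest for both genes in both tables and all 4 changes were called after centring, but quantile normalization lost the first of *EFNA5* and the second of *EFNA2*.

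The transmembrane ephrins of the B class were not called in any comparison. *EFNB1*, second among the members in mean FPKM, had scores of 89, 74 and 82 beside an FPKM of 97.5, 146 and 110, so that wing was lowest in one table and highest in the other. The tables also differed over all entries with a mean of at least 1, of which 39.3% by score and 76.4% by FPKM were highest in wing. *EFNB2* had scores of 14, 12 and 11 beside an FPKM of 37.2, 31.4 and 34.2. With centring *EFNB2* was called lower in wing than in both other regions.

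PDGF and VEGF ligands were mostly highest in wing, 5 of 6 in the second table, where 76.4% of all entries with a mean of at least 1 were highest in wing. *VEGFD*, a growth factor of lymphatic and blood vessels in mammals, is on chromosome 1 from 122045081 to 122076797. *VEGFD* had scores of 9, 19 and 6 beside an FPKM of 14.9, 42.5 and 12.5, with log2 changes of 1.23 ± 0.19 from neck to wing (adjusted p = 5.24e-09) and -1.60 ± 0.19 from wing to leg (adjusted p = 5.37e-15), both called after centring. The neck and leg scores of *VEGFD* lay below 9.67, the lowest mean score of an entry, so it may be tested only through wing. Its order of regions was again that of the summed melanocyte and epithelial markers, although single markers varied. The part of these cells in it was not tested. *VEGFA*, the main growth factor of blood vessels, had its highest value in leg, with scores of 10, 9 and 13 beside an FPKM of 11.3, 10.1 and 15.4. *VEGFA* was called between leg and wing, at 0.52 ± 0.21 (limma, adjusted p = 0.0256). The mean score of *VEGFA*, 10.7, was near the lowest as well, so it may be tested only through leg. The 8 listed markers of blood and endothelium, in the second table only, had a summed FPKM of 11.3 (neck), 83.8 (wing) and 27.5 (leg). All 8 were higher in wing and in leg than in neck, but wing and leg differed unevenly. The blood marker *HBBA* had an FPKM of 1.39, 36.5 and 5.24, and the endothelial marker *KDR* had 0.699, 3.44 and 3.17. The part of these cells in the VEGF values was not tested.

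*PDGFRA*, the PDGF receptor typical of fibroblasts, had an FPKM of 4.05 (neck), 28.2 (wing) and 16.7 (leg), in the second table only. Wing was 6.95 times and leg 4.13 times neck, and the summed mesenchyme markers ran in the same order. Whether cells of the pulp account for it was not tested. Of the PDGF ligands, *PDGFA* had 3.70, 4.15 and 2.92, *PDGFC* had 12.2, 20.2 and 9.83, and *PDGFD* had 19.5, 35.5 and 19.2. *PDGFB* had 0.977, 2.53 and 0.418.

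In the IGF system, *IGFBP4*, a secreted protein that binds IGFs and limits their action, had the largest fitted change between wing and neck among the 22 members tested. *IGFBP4*, on chromosome 27 from 4865484 to 4879447, had scores of 11 (neck), 28 (wing) and 14 (leg) beside an FPKM of 9.49, 52.2 and 15.8. Neck was lowest and wing highest in both tables. The log2 change was 1.81 ± 0.18 from neck to wing (limma, adjusted p = 7.33e-21), made up of 1.27 for the scores and 2.34 for FPKM, and -1.31 ± 0.18 from wing to leg (adjusted p = 2.76e-11). Both were called after centring. The sum of the mesenchyme markers had the same order of regions, and their part in this was not tested.

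*IGFBP2*, another IGF-binding protein, had scores of 46, 37 and 44 beside an FPKM of 63.7, 84.5 and 73.0, so the tables disagreed on wing. They also did over all entries with a mean of at least 1, of which 39.3% by score and 76.4% by FPKM were highest in wing. *IGFBP3* had an FPKM of 3.70, 9.03 and 6.13, and *IGFBP1* was listed at 0 in neck and wing. The ligand *IGF2* had 1.35, 10.2 and 3.05, with wing 7.53 times neck, and *IGF1* had 0.273, 1.27 and 0.807. Both ligands had the order of *IGFBP4*. The signalling receptor *IGF1R* had scores of 15, 12 and 13 beside an FPKM of 32.9, 23.8 and 32.6, lowest in wing in both tables, and was called lower there than in both other regions after centring and with quantile normalization, not otherwise. *IGF2R* had an FPKM of 26.5, 34.9 and 27.9. Among the genes that share only a name, *IGF2BP3* had 9.88, 19.0 and 8.87, *EGFL6*, a secreted matrix protein, had 1.73, 6.82 and 0.979, and *EGFL7*, secreted by endothelial cells, had 1.96, 10.5 and 4.06. *FGFR1OP2* had scores of 26, 23 and 20 beside an FPKM of 80.1, 71.7 and 68.9.

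**Figure D3:**
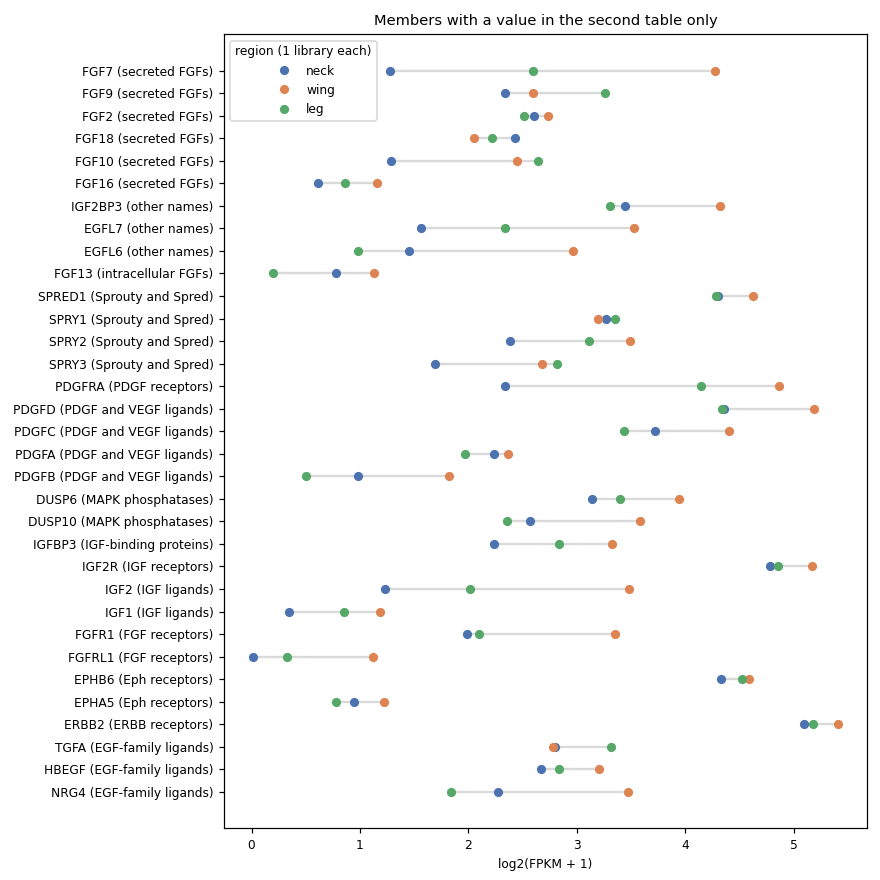
log2(FPKM + 1) in neck, wing and leg for the 33 members found in the second table only that reached an FPKM of 1 in a library, 1 library per region, with the role group in brackets. *FGF7*, *PDGFRA* and *IGF2* span the widest ranges, with neck lowest and wing highest.

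Feedback genes had values mainly in the second table. Sprouty and Spred proteins inhibit the path from receptor to MAP kinase. *SPRY2* had an FPKM of 4.23 (neck), 10.2 (wing) and 7.63 (leg) and *SPRY3* had 2.23, 5.40 and 6.03, both lowest in neck. *SPRY1* had 8.62, 8.17 and 9.23 and *SPRED1* had 18.7, 23.6 and 18.5, and *SPRY4* stayed below 1. *DUSP6*, an ERK phosphatase that FGF signalling induces in many embryonic tissues, had 7.80, 14.3 and 9.56. *DUSP10*, which acts on the stress-activated MAP kinases, had 4.94, 11.0 and 4.10. Wing was highest for *SPRY2*, *SPRED1*, *DUSP6* and *DUSP10*, as for most entries of that table.

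*DUSP1*, an immediate early gene for a nuclear MAP kinase phosphatase, was the member on which the tables differed most. *DUSP1*, on chromosome 13 from 9052014 to 9054997, had scores of 33 (neck), 30 (wing) and 423 (leg), but an FPKM of 50.3, 57.7 and 47.8. Leg was 12.8 times neck in the first table and lowest in the second. After the shift between the tables was removed, the log2 leg-to-neck ratio of *DUSP1* was 3.93 higher in the first table than in the second, the largest difference of 2140 genes above 0 in the second. limma called it higher in leg than in neck, with a log2 change of 1.79 ± 0.18 (adjusted p = 1.98e-21), because the spread was pooled over genes and its own spread had no weight. The call from wing to leg had a log2 change of 1.75 (adjusted p = 2.82e-21). Both calls rest on 1 library. Without replicate 1 the changes were -0.07 and -0.27, and for leg against neck the adjusted p ran from 7.74e-22 to 1 over the alternatives. No other MAP kinase phosphatase of the first table was highest in leg.

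In the first table *DUSP7* had scores of 70, 63 and 50 and *DUSP8* of 16, 6 and 12. The mean score of *DUSP8*, 11.3, was near the lowest there, so it may be listed only through its highest region. *DUSP4*, with both values, had scores of 17, 14 and 13 beside an FPKM of 21.5, 22.5 and 17.5 and was not called. The atypical phosphatase *DUSP14*, in the first table only, had scores of 177 (neck), 91 (wing) and 131 (leg), lowest in wing. *DUSP12* and *DUSP19* had scores of 7 to 14, and *DUSP28* an FPKM of at most 0.54.

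**Figure D4:**
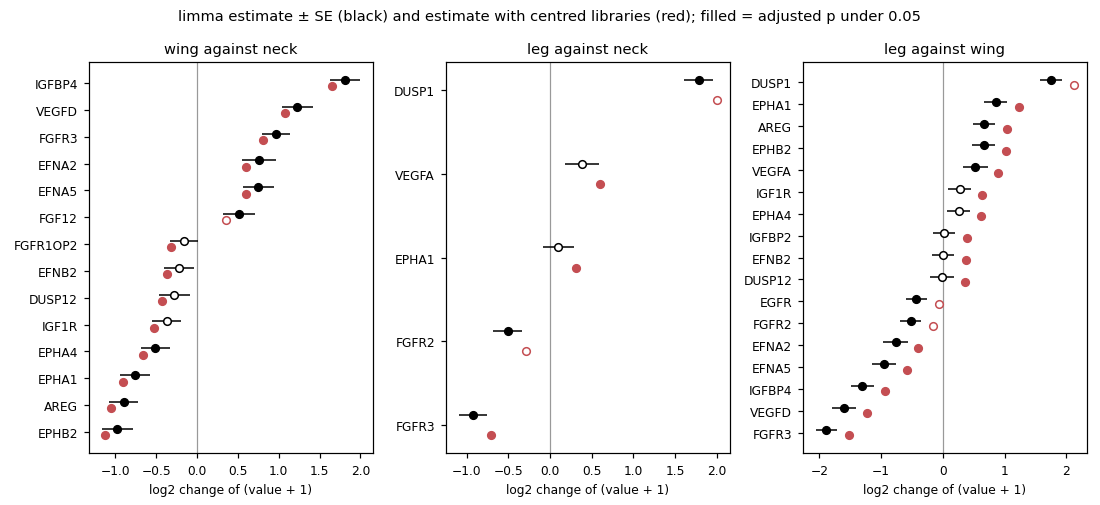
limma log2 change ± SE (black) and the change after centring each library on its median (red) for members called in either fit; filled points have an adjusted p under 0.05. Points for *DUSP1*, *FGFR2* and *EGFR* are filled in black and open in red, whereas *FGFR3* is filled in both in all 3 comparisons.

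Single libraries of the second table were also set against a fixed fold. At least a 2-fold rise from neck to wing, on value + 1, was reached by 15 of the 49 members with a mean FPKM of at least 1, against 15.1% of all entries, and a 2-fold fall by 0, against 1.82%. From neck to leg 4 members rose 2-fold, against 2.93%, and 0 fell, against 0.823%. From wing to leg 0 rose, against 2.17%, and 12 fell, against 14.8%. Of 29 members in the first table, 2 rose 2-fold from neck to wing, against 5.45%, and 6 fell, against 7.85%. From neck to leg 1 rose, against 1.79%, and 1 fell, against 4.38%, and from wing to leg 2 rose, against 4.79%, and 3 fell, against 10.7%. Between the highest and lowest region, a 2-fold range with a highest value of at least 5 was reached by 11 of 29 members in the first table, against 21%, and by 17 of the 46 whose highest FPKM was at least 5 in the second, against 20.8%. An entry near 9.67, the lowest mean score, may be listed in the first table only through its highest region, which favours such a range. *EPHB2*, *DUSP8*, *VEGFD*, *EFNA5* and *EPHA2*, with mean scores from 10.7 to 12, were among those 11 members. The highest region was the same in both tables for 16 of the 21 members above 0 in both, against 63.6% of genes. These shares have no replicate check, and the mesenchyme markers were higher in the wing and leg libraries of both tables by their sums.

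Of the other genes of these pathways, 167 were listed, namely adaptors, Ras and MAP kinase, PI3 kinase and AKT, target genes, further receptor kinases and ligands, and cofactors, and 38 were tested. limma called 7 higher and 6 lower in wing than in neck, where 19.5% and 8.26% of all genes were. It called 0 higher and 6 lower in leg than in neck, against 1.78% and 10.4%, and 4 higher and 12 lower in leg than in wing, against 5.98% and 40.8%. The median log2 changes of the 38 were -0.05, -0.24 and -0.17, against 0.14, -0.20 and -0.32 for all genes. After centring the calls were 6 higher and 19 lower, against 22% and 23.8%, then 2 and 6, against 9.58% and 8.31%, and 18 and 6, against 28.3% and 24%. The largest were in the heparan sulfate proteoglycans *GPC1* and *SDC2*, which bind FGFs, and in the immediate early gene *FOS*. *GPC1* had scores of 22, 34 and 11 beside an FPKM of 38.1, 88.3 and 24.0, the order of regions found for *FGFR3*, with a log2 change of -1.69 ± 0.17 from wing to leg (limma, adjusted p = 1.33e-20). *SDC2* had scores of 21, 32 and 13 beside an FPKM of 52.0, 83.5 and 37.1, and its change from wing to leg was -1.19 (adjusted p = 9.05e-11). *FOS* had scores of 38, 13 and 27 beside an FPKM of 36.2, 20.6 and 29.4, lowest in wing in both tables. Its change from neck to wing was -1.13 ± 0.17 (limma, adjusted p = 2.30e-09).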

How the data were processed

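Per the file headers and the deposited values, the first table gives each region a whole-number score of unstated unit and normalization, and the second gives the FPKM that the authors deposited. The submitters' processing notes name TopHat2 2.1.0 and Cufflinks 2.2.1, without a role, and galGal4. The loci of the first table include 46 entries on chromosome 33. The lowest mean of a first-table entry is 9.67, so low genes were filtered out there. The column with the authors' mean FPKM and 101 empty rows of the second table were not used. Names were matched through RefSeq symbols and older names of GRCg7b, used for names only, and all members matched.

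limma (lmFit and eBayes with trend) was run on log2(value + 1) of the 2191 genes, a minimum mean of 1 removing 0 of them, with 2 residual degrees of freedom per gene and infinite prior degrees of freedom. log2 changes understate those of low genes. The replicate number, which is the table, was a block because the units differ. Deviations from the region means correlated at 0.968 to 0.990 between regions within a replicate number. Such a deviation holds only the gene's difference between the tables, whose units differ. The correlation therefore cannot show whether samples were paired. The planned test was kept although the first unit is unstated. The script was tested on simulated data.

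Members were found by name. Full values are given for members called in any comparison or at least 2-fold between regions with a highest value of at least 5, others by range or shortly, and of the listed pathway genes the 3 called with the largest change, besides the EGFR ligands named after their values were seen. Members and lists were chosen with earlier results of these data known. Alternatives were no block, centring, quantile normalization, equal totals, a pseudocount of 0.1, no filter, a mean of at least 5 in each table, only the 4 libraries compared, each gene's own spread, identical names, each replicate left out and, for detection, values of 0.1 or 5 or any library. Leaving out genes at 0 in the second table was added after seeing the data. Depth is unknown. Python 3.11.15, pandas 2.3.3, numpy 2.4.6, matplotlib 3.10.9, R 4.3.3 and limma 3.58.1 were used.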

Additional observations from a re-analysis of the deposited data

How the results depend on the processing

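Without the replicate block limma called 0 members in any comparison, and 1, 0 and 2 of all genes for wing against neck, leg against neck and leg against wing (37, 9 and 32 at an unadjusted p under 0.05). For the members 0, 0 and 1 were at an unadjusted p under 0.05. With each gene's own spread and the block, 0 genes and 0 members were called in each comparison, with 439, 291 and 712 genes and 7, 4 and 8 members at an unadjusted p under 0.05. All counts of calls therefore rest on the block and on the spread pooled over genes.

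For all genes, wing against neck gave 1002 calls with centring, 1035 with quantile normalization and 199 with the 4 libraries alone, instead of 608. Leg against neck gave 448 with quantile normalization and 154 with equal totals, instead of 266. Member counts stayed within 1.5 times 10, 3 and 12 under the other alternatives, and of the 25 changes called, centring lost 6, quantile normalization 8, equal totals 4 and the 4 libraries alone 4. The share of calls that were higher went from 70.2% to 48.0% with centring for wing against neck, from 14.7% to 53.6% for leg against neck and from 12.8% to 54.1% for leg against wing. *FGF12* was also lost with a mean of at least 5 and without genes at 0, and *VEGFA* without genes at 0.

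With one replicate left out 1 library per region remains, so no test could be made. *DUSP1* ran from -0.0706 to 3.64 for leg against neck and from -0.27 to 3.77 for leg against wing. The other 23 called changes kept their direction. Members detected at an FPKM of at least 1 in all libraries numbered 47 of 70, 56 at 0.1, 32 at 5 and 54 for any library.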
